A study of Mus musculus with 8 samples.

Results

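Caveolae are small pits of the plasma membrane, rich in cholesterol and sphingolipids, and adipocytes are among the cells that carry most of them. Caveolins lie in the membrane as hairpins, cavins coat it from the cytosol, and the ATPase of Ehd2 and the membrane-bending protein of Pacsin2 act at the neck or during the shaping of the pit. Loss of Cav1 or Cavin1 removes caveolae from adipocytes and causes lipodystrophy in mice and people. The genes described here are Cav1, Cav2, Cavin1, Cavin2, Cavin3, Ehd2 and Pacsin2, chosen by name as known components of caveolae, 7 of the 22962 genes in the table. All 7 were among the 12060 genes tested.

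The libraries came from wild-type mouse cells of the stromal vascular fraction of gonadal fat that had been differentiated into adipocytes in culture. Of the 8 libraries, 4 were from cells given DoxSa and 4 from cells given the solvent DMSO, on day 6 in both groups. What the abbreviation DoxSa stands for is not stated in the labels; the title of the series names 1-deoxysphingolipids, which lack a hydroxyl group that common sphingolipids carry. The sources used here do not give the dose, the exposure time, or the sex and age of the mice. Nor do the labels tie the 4 libraries of a group to separate mice or dishes, and the p-values therefore cover the spread among libraries, which may be technical.

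Values are FPKM, the reads of a gene scaled by its length and by the reads of the library. The library totals, recovered from the steps of the low values, lay between 39213008 and 41365861 reads. Adipoq, the gene of adiponectin and a marker of mature fat cells, was abundant, at 772 ± 19.2 FPKM in DoxSa and 774 ± 29.8 FPKM in DMSO (SD, n = 4). Not all of the 15 adipocyte markers were: over the 8 libraries Lep averaged 6.53 FPKM, and Cidea averaged 0.159 FPKM and was not tested. Macrophage transcripts were abundant too: the 12 macrophage markers summed to between 7566 and 8078 FPKM in DoxSa and between 6793 and 7794 FPKM in DMSO. The libraries are bulk RNA, so fewer cells of a type and less RNA per cell cannot be told apart.

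Between DoxSa and DMSO cultures, none of the 7 caveolae genes passed the test. With limma on log2(FPKM + 1) and a Benjamini-Hochberg threshold of 0.05 for the adjusted p, 0 of 7 were higher and 0 of 7 lower in DoxSa. Of the 12060 tested genes, 5.9% were called, 3.88% as higher and 2.02% as lower. The adjusted p of the 7 genes lay between 0.183 and 0.977. Voom on the recovered reads also called 0 of 7. At an unadjusted p under 0.05, 4 of the 7 were lower (Cav1, Cavin1, Cavin2 and Ehd2), where 19.8% of all tested genes reached such a p and 7.24% did so with a lower level in DoxSa. The fold changes of all 7 genes were below 0, as were those of 43.3% of all tested genes, with a median of -0.09 against 0.01 over all genes. Of the 14 tested adipocyte markers, 12 were also below 0, with a median of -0.08, and of the 12 macrophage markers 1 was below 0, with a median of 0.09. The part of these cells in the caveolae values was not tested. A p that misses the threshold does not show that the levels were equal. The unadjusted 95% intervals of Cav1, Cavin1, Cavin2 and Ehd2 lay below 0, which restates their unadjusted p under 0.05. With group means removed, these 4 genes varied together over the 8 libraries (Pearson r between 0.54 and 0.80), so they are not 4 separate signs. The negative fold changes held for 7 of 7 genes under each of the scalings tried. That of Cav2 turned positive with library quality weights and when DoxSa 2, DoxSa 3, DMSO 3 or DMSO 4 was left out.

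Between 4126 and 43998 reads fell on each of them in each library, so that counting error alone was between 0.48% and 1.56% of a value, while the SD between the libraries of a group was 1.73% to 9.19% of the mean. In order of level, averaged over the 8 libraries, they were Cav1 (291 FPKM), Cavin3 (142 FPKM), Cavin1 (139 FPKM), Ehd2 (116 FPKM), Cav2 (61.2 FPKM), Cavin2 (37.98 FPKM) and Pacsin2 (18.2 FPKM). The libraries of Cavin3 and Cavin1 overlapped in level, and those of every other pair of neighbours in this order did not. Cav1 ranked 217 among the 12060 tested genes and Pacsin2 ranked 3094.

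**Figure D1:**
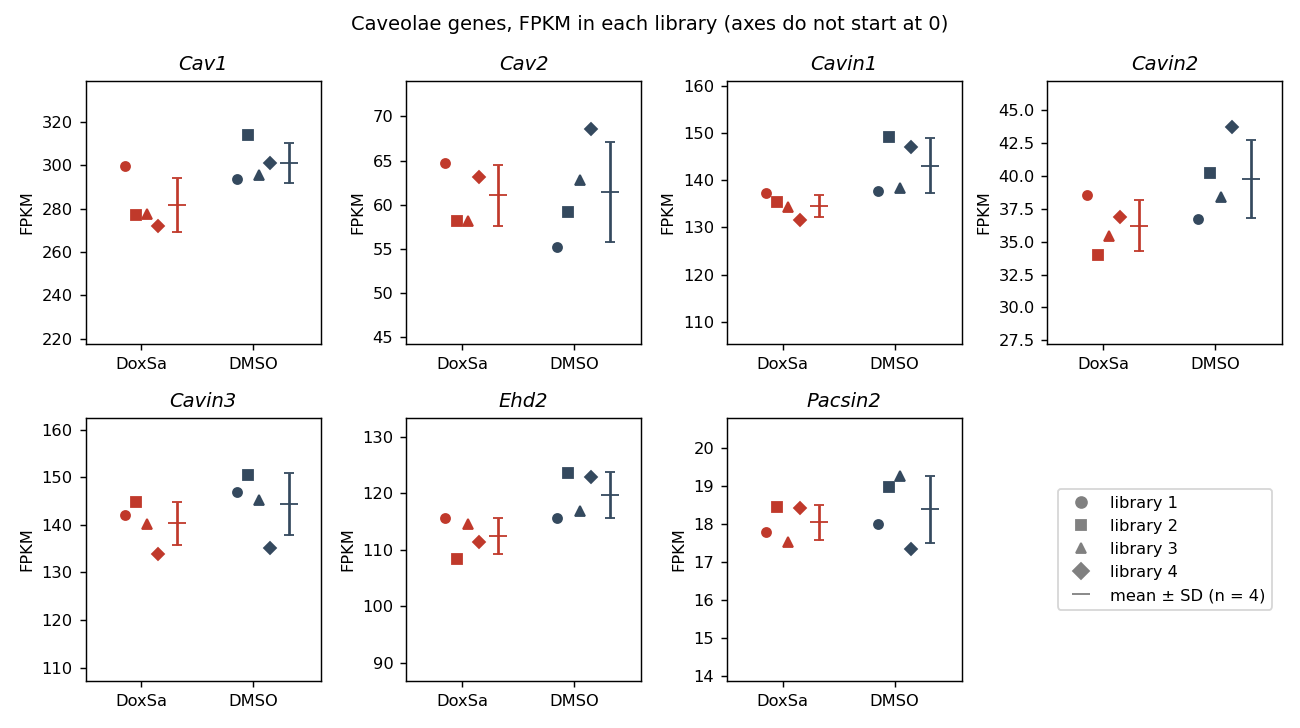
FPKM of the 7 caveolae genes in each of the 4 DoxSa libraries (left, red) and 4 DMSO libraries (right, dark), with the mean and SD beside the points; the vertical axes do not start at 0. The groups overlap for 5 genes, while for Cavin1 and Ehd2 the 4 DoxSa libraries sit below the lowest DMSO library, the highest of them only just.

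The caveolins form the scaffold of the pit. Cav1, the caveolin without which adipocytes have no caveolae, measured 299.9, 277, 277 and 272 FPKM in DoxSa 1 to 4, against 294, 314, 295 and 301 FPKM in DMSO 1 to 4. DoxSa 1 lay within the range of the DMSO libraries and the other 3 DoxSa libraries lay below all of them. The means were 282 ± 12.5 FPKM in DoxSa and 301 ± 9.12 FPKM in DMSO (SD, n = 4). The log2 fold change was -0.10 ± 0.04 (SE, limma adjusted p = 0.191), and its 95% interval, as a change of FPKM + 1, ran from -11.8% to -0.78%. Cav2, a caveolin that binds to Cav1 and depends on it to reach the cell surface, measured 64.8, 58.2, 58.1 and 63.2 FPKM in DoxSa 1 to 4, against 55.3, 59.1, 62.8 and 68.5 FPKM in DMSO 1 to 4. The DoxSa libraries all lay inside the DMSO range. The log2 fold change of Cav2 was -0.01 ± 0.06 (limma adjusted p = 0.977), with an interval from -9.36% to 9.45%. Cav3, the caveolin of muscle, was near the limit of detection, with 0 to 7 reads in DoxSa libraries and 1 to 6 reads in DMSO libraries, and was not tested.

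The cavins are the coat. Cavin1, the cavin that all caveolae need, measured 137, 135, 134 and 132 FPKM in DoxSa 1 to 4, against 138, 149, 138 and 147 FPKM in DMSO 1 to 4. The groups did not overlap, with 0.567 FPKM between the highest DoxSa and the lowest DMSO library. Its log2 fold change was -0.09 ± 0.04 (SE, limma adjusted p = 0.199), with a 95% interval from -10.7% to -0.62%. Cavin2, which helps to bend the membrane and whose amount varies between tissues, measured 38.5, 34.01, 35.4 and 36.9 FPKM in DoxSa 1 to 4, against 36.7, 40.2, 38.4 and 43.7 FPKM in DMSO 1 to 4. DoxSa 1 and DoxSa 4 lay inside the DMSO range. Cavin2 had the lowest log2 fold change of the 7 genes, -0.13 ± 0.05 (limma adjusted p = 0.212), with an interval from -15.95% to -0.68%. Cavin3, a cavin that links caveolae to signalling and to movement along microtubules, measured 142, 145, 140.3 and 134 FPKM in DoxSa 1 to 4, against 147, 150.5, 145 and 135 FPKM in DMSO 1 to 4. Its groups overlapped over most of their range, with a log2 fold change of -0.04 ± 0.04 (limma adjusted p = 0.636) and an interval from -8.56% to 3.24%. Cavin4, the cavin of muscle, had a mean under 0.5 FPKM and was not tested, with 20 to 38 reads in DoxSa libraries and 33 to 57 reads in DMSO libraries.

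The neck and shaping genes were not called either. Ehd2, an ATPase that holds caveolae at the surface, measured 115.6, 108.5, 115 and 111 FPKM in DoxSa 1 to 4, against 115.6, 124, 117 and 123 FPKM in DMSO 1 to 4. The highest DoxSa and the lowest DMSO library were 0.0556 FPKM apart, so the groups did not overlap but nearly touched. The log2 fold change of Ehd2 was -0.09 ± 0.04 (SE, limma adjusted p = 0.183), with a 95% interval from -10.9% to -0.83%. Pacsin2, an F-BAR protein that senses and makes membrane curvature, measured 17.8, 18.4, 17.5 and 18.4 FPKM in DoxSa 1 to 4, against 17.98, 18.97, 19.2 and 17.3 FPKM in DMSO 1 to 4. All DoxSa libraries lay inside the DMSO range, and the log2 fold change was -0.03 ± 0.04 (limma adjusted p = 0.800), with an interval from -7.66% to 4.56%. Cavin1 and Ehd2 were the 2 of 7 genes whose groups did not overlap, where 12.5% of all tested genes did not overlap and 4.71% did so with DoxSa lower. Both gaps were smaller than the counting error of 1 library, which was 0.58% to 0.61% of the level for Cavin1 and 0.63% to 0.68% for Ehd2. A gap compares only the nearest library of each group. The group means were 134.6 FPKM in DoxSa and 143.1 FPKM in DMSO for Cavin1, and 112.5 FPKM in DoxSa and 119.8 FPKM in DMSO for Ehd2. Over the 7 genes, the outer bounds of the 95% intervals were -15.95% and 9.45%, or -0.25 and 0.13 as log2 fold changes. The median absolute log2 fold change of the 712 genes called in the whole table was 0.29. Those genes were picked by the test, which favours large changes, so that median is no yardstick for the 7 genes.

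**Figure D2:**
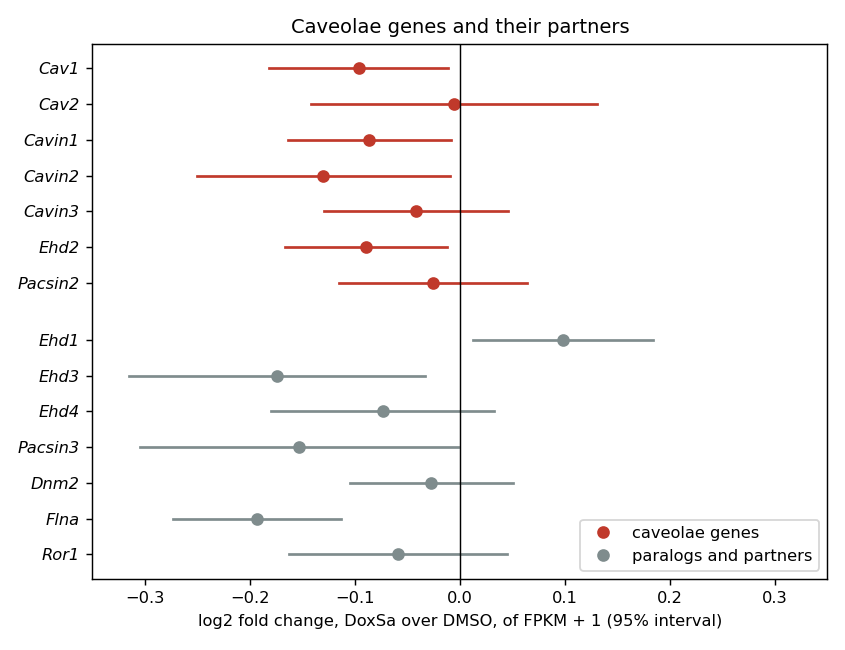
Log2 fold change of FPKM + 1, DoxSa over DMSO, with its 95% interval from limma, for the 7 caveolae genes (red) and 7 tested paralogs and partners (grey). The 7 caveolae genes lie between -0.13 (Cavin2) and -0.01 (Cav2), and the intervals of Cav1, Cavin1, Cavin2 and Ehd2 lie below 0. None of the 7 passed the adjusted threshold, and among the partners only Flna did, at -0.19.

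The proportions of the caveolae transcripts to each other were then compared within each library, where the library total plays no part. Cavin1 stood at 0.479 ± 0.0142 of the FPKM of Cav1 in DoxSa and 0.475 ± 0.00909 in DMSO (SD, n = 4). Ehd2 stood at 0.3999 ± 0.0135 of Cav1 in DoxSa and 0.398 ± 0.00689 in DMSO. The ratio of Cav2 to Cav1 was 0.217 ± 0.0107 in DoxSa and 0.204 ± 0.0193 in DMSO. For Pacsin2 to Cav1 it was 0.0642 ± 0.00380 in DoxSa and 0.0611 ± 0.00313 in DMSO. Against Cavin1, Cavin2 stood at 0.269 ± 0.0143 in DoxSa and 0.278 ± 0.0137 in DMSO, and Cavin3 at 1.04 ± 0.0215 in DoxSa and 1.01 ± 0.0656 in DMSO. The groups overlapped for all 6 ratios. Exact two-sided permutation tests over the 70 assignments gave p between 0.257 and 0.886 for the 6 ratios (n = 4 per group, adjusted p between 0.771 and 0.886), where the smallest p the design allows is 0.0286. The summed FPKM of Cavin1, Cavin2 and Cavin3 was 0.872 to 0.937 of that of Cav1 and Cav2 in DoxSa libraries and 0.882 to 0.921 in DMSO libraries.

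The scatter between libraries of a group was then set side by side for the 7 genes. With the group means removed, the log2 levels of Cavin1 and Ehd2 followed that of Cav1 over the 8 libraries with Pearson r of 0.74 and 0.71, and those of Cavin2, Cavin3, Cav2 and Pacsin2 with 0.54, 0.34, 0.28 and -0.08. Among the 4879 other genes that averaged 10 FPKM or more, 13.9% had an r over 0.5 with Cav1. Leaving out 1 library at a time, r with Cav1 lay between 0.62 and 0.90 for Cavin1 and between 0.61 and 0.80 for Ehd2. The closest pair was Cav2 and Cavin2 (r = 0.88), both high in DMSO 4 and low in DMSO 1, followed by Cavin2 and Ehd2 (r = 0.80) and Cavin1 and Ehd2 (r = 0.78). Cav2 and Cavin3 ran opposite to each other (r = -0.70). These correlations describe 8 libraries whose 2 group means had been subtracted, and values of 1 library share its total and its mix of cells.

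**Figure D3:**
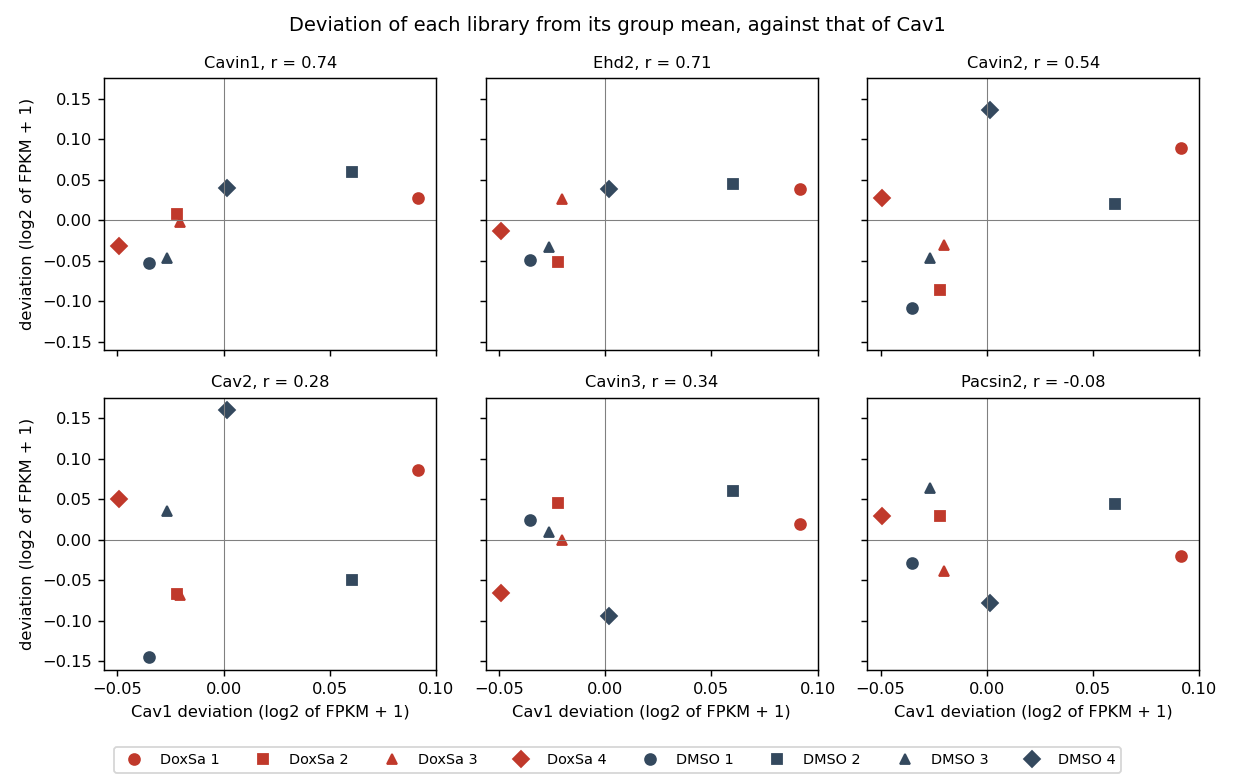
Deviation of each library from the mean of its group, in log2 of FPKM + 1, for 6 caveolae genes (vertical) against Cav1 (horizontal), with DoxSa libraries in red and DMSO libraries in dark. DoxSa 1 and DMSO 2, the libraries highest in Cav1 for their group, are above 0 for Cavin1 and Ehd2 too (r = 0.74 and 0.71), while the points of Cav2 and Pacsin2 scatter (r = 0.28 and -0.08).

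The genes most like Cav1 in level over the 8 libraries, counting those that averaged 10 FPKM or more, were Agt, the gene of angiotensinogen (r = 0.96), Acsl1, a fatty acid activating enzyme of adipocytes (r = 0.94), Fhl1, a LIM domain gene (r = 0.94), Acadvl, an enzyme of mitochondrial fatty acid oxidation (r = 0.93), and Tmem120b, a nuclear envelope gene (r = 0.93). Of the 4879 genes, Cavin1 ranked 15, Ehd2 20, Cavin2 110, Cavin3 650, Cav2 1421 and Pacsin2 1651. With group means removed, the closest were Acsl1 (r = 0.98), Leo1, a gene of transcription elongation (r = 0.97), Lrrc59, an endoplasmic reticulum gene (r = 0.96), Rragc, a Rag GTPase (r = 0.95), and Map7d1, which encodes a microtubule-binding protein (r = 0.93). By this measure Cavin1 ranked 134, Ehd2 184, Cavin2 558, Cavin3 1180, Cav2 1440 and Pacsin2 2925. Acsl1 alone stood among the first 5 by both measures. With any 1 library left out, r stayed between 0.88 and 0.98 for the 5 genes by level, and between 0.81 and 0.99 for the 5 by deviation. These genes were picked as the highest of 4879 over the same 8 libraries. A high r is therefore given by the choice, and the ranges are a description and no support.

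The promoter of Cav1 is shown with those of Cavin1, Ehd2 and Cavin2, which among the caveolae genes had the highest r with Cav1. That of Cav2 is shown too, a gene that lies close to Cav1 on chromosome 6 and had a lower r with it. Each is the 250 bases before the RefSeq start of the gene on build GRCm38.p6, read 5′ to 3′ on the strand of the gene, with capitals for the GC box (GGGCGG), the CCAAT box (CCAAT) and the TATA box (TATAAA) on either strand. They lie at chr6:17306085-17306334 (Cav1, plus strand), chr11:100970618-100970867 (Cavin1, minus strand), chr7:15967536-15967785 (Ehd2, minus strand), chr1:51288876-51289125 (Cavin2, plus strand) and chr6:17280935-17281184 (Cav2, plus strand). RefSeq promoters were matched by symbol for 6 of the 7 genes (all but Cavin3); where a gene had 2 or more start sites, the one nearest the 5′ end of the gene in RefSeq was taken.
Cav1: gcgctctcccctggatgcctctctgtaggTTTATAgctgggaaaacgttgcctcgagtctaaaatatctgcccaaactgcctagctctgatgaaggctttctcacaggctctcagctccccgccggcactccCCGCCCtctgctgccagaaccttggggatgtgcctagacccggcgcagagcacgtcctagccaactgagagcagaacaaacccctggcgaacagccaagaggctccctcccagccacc
Cavin1: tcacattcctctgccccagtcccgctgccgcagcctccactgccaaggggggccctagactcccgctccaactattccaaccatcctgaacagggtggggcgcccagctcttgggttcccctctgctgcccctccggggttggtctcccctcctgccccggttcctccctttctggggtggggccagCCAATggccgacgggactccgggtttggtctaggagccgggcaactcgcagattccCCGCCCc
Ehd2: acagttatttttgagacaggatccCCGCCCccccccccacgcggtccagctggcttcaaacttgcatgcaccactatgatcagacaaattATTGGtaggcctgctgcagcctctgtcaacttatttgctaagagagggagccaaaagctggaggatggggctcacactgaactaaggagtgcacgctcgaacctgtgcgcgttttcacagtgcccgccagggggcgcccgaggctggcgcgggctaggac
Cavin2: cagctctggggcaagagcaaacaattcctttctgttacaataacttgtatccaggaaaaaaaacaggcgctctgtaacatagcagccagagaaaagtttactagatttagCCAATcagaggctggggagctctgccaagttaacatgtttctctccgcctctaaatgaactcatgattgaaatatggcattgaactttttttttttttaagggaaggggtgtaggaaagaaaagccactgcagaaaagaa
Cav2: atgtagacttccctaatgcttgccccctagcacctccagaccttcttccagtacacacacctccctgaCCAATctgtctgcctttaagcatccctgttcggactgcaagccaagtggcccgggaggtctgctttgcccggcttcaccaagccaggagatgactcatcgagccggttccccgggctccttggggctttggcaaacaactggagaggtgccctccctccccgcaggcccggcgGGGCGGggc

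The promoters of Cav1, Cavin1, Ehd2 and Cav2 held 1 GC box each and that of Cavin2 held none; a GC box is a motif that 32.7% of the 32851 promoters in the table hold. The GC box began 118 bases before the start in Cav1, 7 in Cavin1, 226 in Ehd2 and 9 in Cav2. A CCAAT box, held by 33.8% of all promoters, was present in Cavin1, Ehd2, Cavin2 and Cav2 and not in this window of Cav1. TATAAA, read on the other strand, was found in Cav1 alone of the 5, 221 bases before the start, and is held by 12.4% of all promoters. GGAATG, the TEAD motif, occurred once among the 5, in Cavin1, and is held by 12.6% of all promoters, and the E-box CACGTG (6.02% of all) occurred in none. GC made up 59.6% of the window in Cav1, 67.6% in Cavin1, 58.0% in Ehd2 and 62.0% in Cav2, with a median of 52.4% over all promoters. The window of Cavin2 was poorer in GC, at 40.4%, with 2 CpG sites against a median of 6 over all promoters. A match is a run of letters and not a proven site.

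Related genes of the membrane were counted from lists. Of the 10 paralogs and partners of caveolar proteins, 7 were tested, 0 rose and 1 fell, with a median log2 fold change of -0.07. The gene that fell was Flna, which encodes filamin A, an actin crosslinker that binds the protein of Cav1 and ties caveolae to actin. Flna measured 96.6 ± 2.24 FPKM in DoxSa and 111 ± 4.69 FPKM in DMSO (SD, n = 4), with groups that did not overlap. Its log2 fold change was -0.19 ± 0.04 (SE, limma adjusted p = 0.0121), and it was called in all 18 alternatives tried (adjusted p between 0.00360 and 0.0425). Ehd1, a paralog of Ehd2 that acts in recycling endosomes, measured 81.5 ± 2.10 FPKM in DoxSa and 76.1 ± 3.62 FPKM in DMSO, with a log2 fold change of 0.10 ± 0.04 (limma adjusted p = 0.184). The others were not called either: the log2 fold change was -0.17 for Ehd3 and -0.07 for Ehd4, further members of the EHD family, -0.15 for Pacsin3, a paralog of Pacsin2, -0.03 for Dnm2, the gene of the dynamin that cuts vesicles free, and -0.06 for Ror1, a receptor reported to hold Cav1 and Cavin1 together. Pacsin1, the neuronal paralog of Pacsin2, had 1 to 6 reads in DoxSa libraries and 1 to 5 reads in DMSO libraries and was not tested.

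Of 7 flotillin and raft genes tested, 0 rose and 0 fell (median 0.02). The members with the smallest p were Erlin1, an endoplasmic reticulum protein of the family, at 0.13 ± 0.04 (SE, limma adjusted p = 0.0605), and Stoml2, a mitochondrial protein of the family, at 0.04 ± 0.04 (adjusted p = 0.595). Of 13 genes of clathrin and its adaptor AP-2, the other main route of uptake at the cell surface, 0 rose and 0 fell (median 0.03). There the smallest p values were those of Cltb, a clathrin light chain, at -0.10 ± 0.04 (limma adjusted p = 0.188), and Eps15, an endocytic adaptor, at 0.08 ± 0.03 (adjusted p = 0.219). Dnm2 is counted both there and among the caveolar partners. Of 9 tested genes whose proteins have been reported in adipocyte caveolae, 0 rose and 0 fell (median -0.08). Cd36, Lipe, Plin1 and Slc2a4 of this list are also among the adipocyte markers, so the medians of these lists are not independent. Slc2a4, the insulin-responsive glucose transporter, stood at -0.15 ± 0.05 (limma adjusted p = 0.128). Slc2a4 was called without DoxSa 1 (-0.20, adjusted p = 0.0423). Of 8 tested genes that supply sphingomyelin and cholesterol to the membrane, 1 rose and 0 fell (median 0.02). It was Star, which moves cholesterol into mitochondria in steroid-making cells. Its mean over the 8 libraries lay just above the filter of 0.5 FPKM, and without any 1 of the DoxSa libraries it was not tested. Star thus passed the filter only through DoxSa, where it was high, so its place in that count is no support. Star measured 0.831 ± 0.177 FPKM in DoxSa and 0.170 ± 0.0287 FPKM in DMSO. Its log2 fold change was 0.64 ± 0.07 (limma adjusted p = 4.44e-04), and 2.26 by voom, which adds less to low values. The median over all 12060 genes was 0.01.

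Markers of other cells that carry caveolae were read beside these values. Endothelial markers were near the limit: 9 of 12 had a mean under 0.5 FPKM, and the 12 summed to between 5.26 and 5.67 FPKM in DoxSa libraries and between 4.11 and 5.34 FPKM in DMSO libraries. Smooth muscle and pericyte markers summed to between 431 and 485 FPKM in DoxSa libraries and between 607 and 674 FPKM in DMSO libraries. Most of this sum was Acta2 (mean 184 FPKM in DoxSa and 289 FPKM in DMSO) and Tagln (248 FPKM in DoxSa and 315 FPKM in DMSO). Of the 9 tested, 4 fell (Acta2, Tagln, Cnn1 and Myh11, genes of contractile actin and myosin filaments), and the pericyte markers Rgs5, Kcnj8 and Higd1b had a mean under 0.5 FPKM. Myh11 passed the filter only through DMSO, with a mean of 0.4034 FPKM in DoxSa and 0.8291 FPKM in DMSO, so its place in that count is no support. Of the 9 tested, 7 were below 0 (median -0.13), while Abcc9 (0.19) and Cspg4 (0.11) were above 0 and not called. Which cells the Acta2 and Tagln transcripts came from was not tested. The part of smooth muscle and pericyte markers in the values of Flna and of the caveolae genes was not tested either. Of 14 tested adipocyte markers, 0 rose and 1 fell (Retn, the gene of resistin, -0.20), and the 15 markers summed to between 12624 and 13321 FPKM in DoxSa and between 12632 and 13047 FPKM in DMSO, mostly through Fabp4, the gene of a fatty acid binding protein, at 8852 FPKM in DoxSa and 8698 FPKM in DMSO. Of 10 tested progenitor and fibroblast markers, Icam1 rose (0.28) and F3 fell (-0.39), with sums between 3447 and 3886 FPKM in DoxSa and between 3551 and 3911 FPKM in DMSO. Of 12 tested macrophage markers, Fcgr1 rose (0.33, limma adjusted p = 0.0388, not called in 10 of 18 alternatives) and 0 fell. Mesothelial markers, led by Krt19, summed to between 11.8 and 16.3 FPKM in DoxSa and between 16.9 and 17.3 FPKM in DMSO, and 7 of the 8 in the table had a mean under 0.5 FPKM. Skeletal and cardiac muscle markers summed to at most 2.73 FPKM in DoxSa and 3.89 FPKM in DMSO.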

How the data were processed

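TRIzol extraction was followed by library construction with the VAHTS Universal V6 kit, per the labels' protocols. The submitters' processing notes name HISAT2, HTSeq and build GRCm39, without versions; the annotation and strand setting were not given. The authors deposited FPKM per gene and library. Library totals, gene lengths and whole reads were recovered from the FPKM steps (12060 of 12060 tested genes within 0.001 of whole reads).

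Genes averaging 0.5 FPKM or more were tested with limma 3.58.1 (R 4.3.3; lmFit, then eBayes with trend) on log2(FPKM + 1), a scale that understates changes of low genes. P-values were Benjamini-Hochberg adjusted over all 12060 genes, and SE and intervals are moderated. The fit was tested on simulated data drawn from genes of all levels. There it missed most of the smallest changes put in, which were larger than those estimated for the 7 genes. The simulation gave all genes the same spread and included low genes. It therefore cannot say how often such a change would be missed at the levels of the 7 genes. Ratios used exact permutation tests (scipy 1.17.1). Lists are described by counts and medians, with no set test. Named genes followed a rule: the 7 genes, all paralogs and partners, the called or 2 smallest-p genes of each other related list, and the 5 genes most like Cav1; the single markers named were chosen after their values were seen, and 1 gene of the rule is not reported here. Members and lists were chosen with earlier results of these data known. Alternatives covered pseudocount, filter, scaling, spread model, pairing, voom and left-out libraries. Strand being unstated, overlapping genes cannot be told apart. Protein sequences were not used here.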

Additional observations from a re-analysis of the deposited data

Results flagged for a closer look

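Of 26 groups of 4 libraries checked (levels of the 7 caveolae genes and their 6 ratios, in each treatment), 2 held a library far from the other 3, both in ratios, where chance gives about 1 in 20. The ratio of Cavin1 to Cav1 was 0.458 in DoxSa 1 and 0.484 to 0.488 in the other 3 DoxSa libraries. The ratio of Ehd2 to Cav1 was 0.408 in DMSO 4 and 0.394 to 0.396 in the other 3 DMSO libraries. No level of a single caveolae gene stood apart in this way.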

How the results depend on the processing

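Over 18 alternatives, none of the 7 caveolae genes was called in either direction, with a lowest adjusted p of 0.0906 (Cav1 without DoxSa 1), and 121 of the 126 values were below 0. The 5 others were all of Cav2: 0.0128 with library quality weights, and the values without DoxSa 2, DoxSa 3, DMSO 3 or DMSO 4. Over all left-out libraries, those above 0 and those below, Cav2 lay between -0.0542 and 0.0476. Leaving out 1 library at a time, the log2 fold change lay between -0.13 and -0.08 for Cav1, between -0.10 and -0.07 for Cavin1, between -0.17 and -0.09 for Cavin2, between -0.07 and -0.02 for Cavin3, between -0.11 and -0.07 for Ehd2 and between -0.05 and -0.00408 for Pacsin2. The ratio differences lay between -0.000171 and 0.0313 (log2) for Cavin1 to Cav1 and between -0.00904 and 0.0241 for Ehd2 to Cav1, so both crossed 0. Over all genes, 158 were called higher and 108 lower with no filter on low values, in place of 468 and 244, and left-out libraries gave 233 to 490 higher and 152 to 235 lower (247 and 154 with DoxSa 1 left out, 233 and 152 with DoxSa 2 left out; leaving out DoxSa 3 gave 308 higher and leaving out DMSO 2 gave 158 lower). By voom on recovered reads, 627 were higher and 317 lower. Quantile normalization gave 384 higher and 316 lower. The cause was not tested. Same-numbered libraries did not deviate together (correlations of deviations between -0.10 and 0.07), so the numbers were not taken to pair them. With the replicate block, 0 of 7 caveolae genes, 415 higher and 209 lower genes were called, and the adjusted p of Cav1 was 0.278. Of the other named genes, Retn and Icam1 were not called with no filter (adjusted p = 0.0650 and 0.0712), and Fcgr1 was not called in 10 alternatives. With a sign-flip test over pairs, which cannot go below p = 0.125 (exact, n = 4 pairs), the 6 ratios gave p between 0.25 and 0.875. The planned ratio of whole reads was not run separately, being the FPKM ratio up to gene length.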
